A study of Homo sapiens with 6 samples.

Results

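The genes described are the EGR and NR4A immediate-early transcription factors with 3 close associates: EGR1, EGR2, EGR3 and EGR4, NR4A1, NR4A2 and NR4A3, the EGR corepressors NAB1 and NAB2, and ARC. They were chosen by name, and all 10 were found among the 23686 genes of the deposited count files. RNA was sequenced from 6 samples of HEK293 cells, an established human embryonic kidney line, and every sample came from cells carrying green fluorescent protein (GFP). The co-culture group (3 samples) consisted of GFP-positive cells that shared a dish for 10 h with DAAO-carrying HEK293 neighbours as a source of reactive oxygen species (ROS), with 25 µM D-alanine. DAAO commonly stands for D-amino acid oxidase, which releases hydrogen peroxide as it oxidises D-amino acids. The control group (3 samples) was labelled as wild-type, GFP-positive cells. Both groups were sorted by flow cytometry for GFP before RNA extraction. The same treatment text stands on all 6 samples, so whether D-alanine or partner cells were present in the controls is not given in the sources used here. The comparison asks how neighbours that make ROS alter transcription in cells that lack the enzyme. No label says that the 3 samples of a group were separate cultures. P-values therefore weigh the group difference against the spread between these samples, which may be technical.

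Immediate-early genes are switched on by existing, signal-activated factors without new protein synthesis, and their transcripts are usually short-lived. EGR genes are classic targets of the ERK pathway through serum response factor and its ETS partners at CArG boxes, and NR4A genes are classic targets of cyclic AMP and calcium signalling through CREB. EGR proteins bind GC-rich sites with zinc fingers, and NAB proteins bind EGR1, EGR2 and EGR3 and repress their activity. NR4A proteins are orphan nuclear receptors, and ARC encodes a neuronal, activity-regulated cytoskeleton-associated protein.

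The libraries held 19091085 to 36250314 reads assigned to the reverse strand of genes, and 1 read was worth 0.0279 to 0.0522 CPM (reads relative to library size, scaled by trimmed means of M-values, TMM). HEK293 markers were present: VIM lay at 925 to 1320 CPM, KRT8 at 363 to 485, KRT18 at 169 to 233, NEFL at 132 to 190 and NEFM at 66.2 to 88.5. INA, GATA3 and PAX2 were also present in every library, with a lowest level of 5.80 CPM for PAX2. Of 8 markers of leukocytes, endothelium, fibroblasts, hepatocytes and muscle, 7 stayed at or below 0.404 CPM and CD3E had 0 reads. DES, a muscle intermediate filament, lay at 1.05 to 1.87 CPM, and the 8 summed to 1.73 to 2.53 CPM in controls and 1.25 to 2.04 CPM in co-culture. DAO, the human gene for the oxidase, had 0 reads in all 6 libraries. A DAAO sequence that differs from the human gene may not be counted under DAO. The neighbours are HEK293 cells too, so these markers cannot show whether any remained after sorting. Co-culture libraries 2 and 3 stood apart in their strand balance: over the 5032 genes that reached 1000 reads in each library, the middle value of the forward-strand share was 0.127% and 0.216% there, against 1.59% to 1.79% in the other 4 libraries. Since these 2 libraries are both from co-culture, results are also given from a fit with this strand class as a covariate. The group difference then rests on co-culture 1 against the controls, and within the class of few forward reads there is no control to compare.

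Of the 10 genes, 3 rose in co-culture: EGR3 by 2.73-fold, NR4A1 by 1.95-fold and NAB2 by 1.67-fold. None fell. EGR2 was 1.57-fold higher without passing the threshold, and EGR1, by far the most abundant EGR transcript, stood at 1.07-fold with overlapping groups. EGR4 was barely detected. The test was edgeR's quasi-likelihood F test with Benjamini-Hochberg adjustment over 14582 genes at a threshold of 0.05, and 9 of the 10 genes passed the filter on low counts, each with at least 20 reads in every library. Across all tested genes 4.83% were called in either direction, 2.66% higher and 2.17% lower, against 3 of these 9 called higher and 0 lower. The 10 genes were chosen with earlier results of these data known, so this contrast is a description and not a test. Groups did not overlap, with co-culture above, for EGR2, EGR3, NR4A1 and NAB2, and 14.3% of all tested genes showed that pattern. With the strand class as covariate, 0 of the 9 passed in edgeR, where 0.199% of all genes passed. At an unadjusted p under 0.05 there were 3 of the 9, against 12.5% of all genes. With the replicate number as a block, 2 of the 9 passed, against 1.12% of all genes. The number was 3 without control 1 and without control 3, where 21% and 4.92% of all genes passed. It was 0 without control 2, co-culture 1 or co-culture 2 (0.446%, 0.844% and 0.487% of all genes) and 1 without co-culture 3 (2.44% of all genes).

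**Figure D1:**
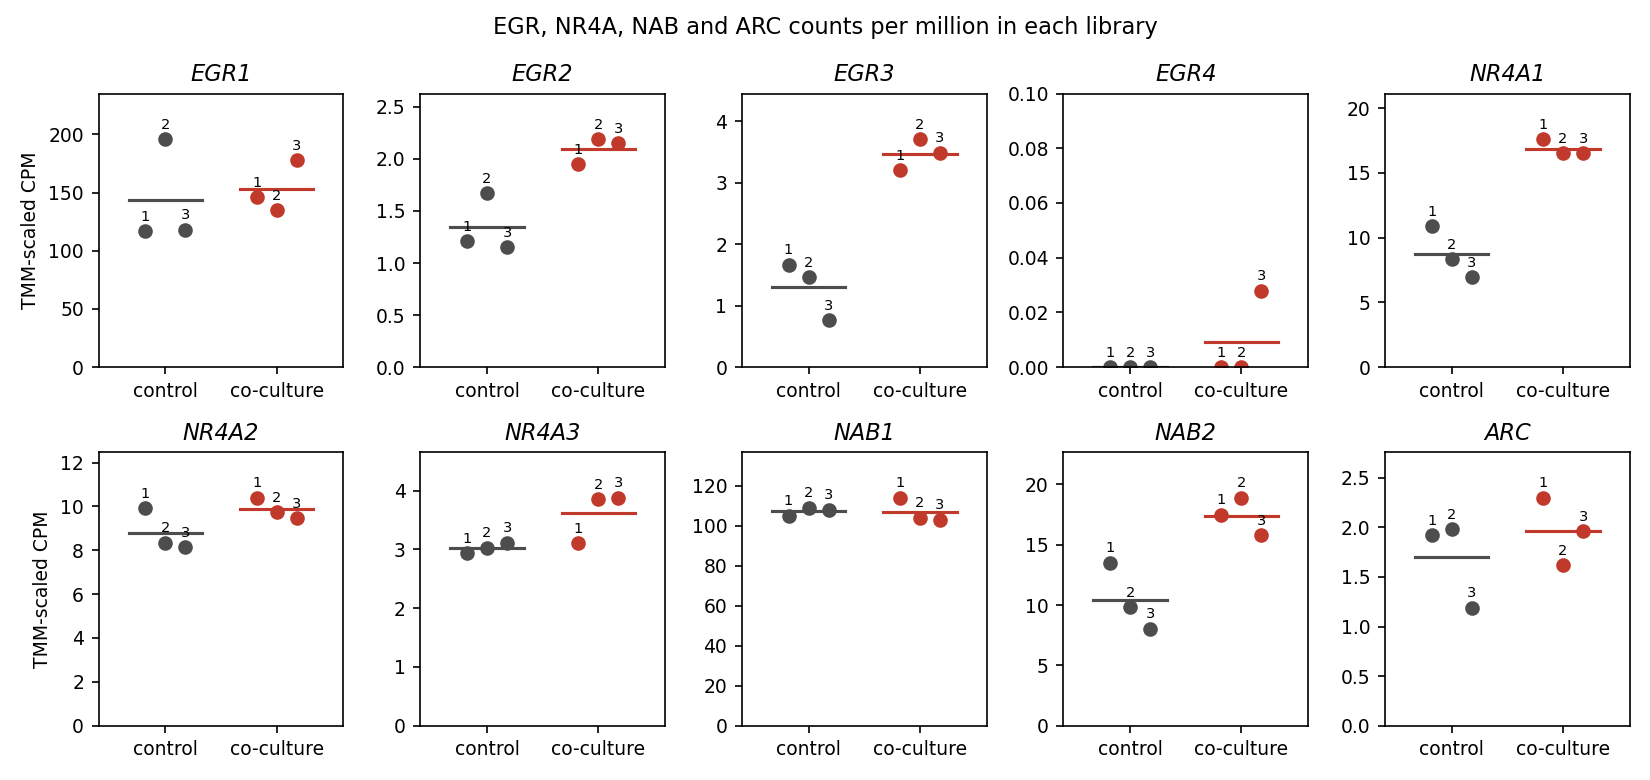
TMM-scaled CPM (vertical axis, starting at 0 in each panel) of the 10 genes in the 3 control libraries (grey) and the 3 co-culture libraries (red). Points are libraries marked with their replicate number and horizontal lines are group means. EGR3, NR4A1, NAB2 and EGR2 show no overlap between groups, while control 2 holds the highest EGR1 value at 196 CPM.

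EGR1, the founding member of the zinc finger family, stood at 117, 196 and 118 CPM in controls 1, 2 and 3 and at 146, 135 and 178 CPM in co-culture libraries 1, 2 and 3. Control 2 lay above all 3 co-culture libraries and the other 2 controls lay below them, so the groups overlap through control 2. Means were 144 ± 44.9 CPM in controls and 153 ± 22.4 CPM in co-culture (SD, n = 3 each). The difference was 0.09 on the log2 scale (SE 0.23, edgeR adjusted p 0.847), with a 95% interval from -0.47 to 0.65. The coefficient of variation among the controls was 31.2%, beside 1.81% from counting reads alone. Without control 2 its log2 fold change was 0.38 (edgeR adjusted p 0.159). It was -0.03 without control 1, without control 3 or without co-culture 3.

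EGR2, known for its part in myelination and hindbrain patterning, was rare, with 24, 32 and 30 reads in the controls and 39, 46 and 77 in co-culture. These counts correspond to 1.21, 1.67 and 1.15 CPM in controls 1, 2 and 3 and to 1.95, 2.19 and 2.15 CPM in co-culture libraries 1, 2 and 3. All 3 co-culture values lay above all 3 controls. In edgeR the log2 fold change was 0.65 (SE 0.23, unadjusted p 0.0168, adjusted p 0.126), with a 95% interval from 0.14 to 1.17 that is not adjusted for the number of genes tested. It passed in 0 of 14 alternative fits, where it ran from 0.55 to 0.83 with edgeR, DESeq2 and limma-voom adjusted p-values of 0.0804 to 0.555.

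EGR3, which acts in muscle spindle development and in lymphocytes, had the largest log2 fold change of the 9 tested genes. It stood at 1.67, 1.46 and 0.767 CPM in controls 1, 2 and 3, and at 3.20, 3.71 and 3.49 CPM in co-culture libraries 1, 2 and 3. The co-culture libraries lay close together while control 3 was lower than the other controls. EdgeR gave a log2 fold change of 1.45 (edgeR adjusted p 0.0155, SE 0.26). The counts behind it were low, between 20 and 33 reads in the controls and between 64 and 125 in co-culture. It lost its call without control 2 (1.55, edgeR adjusted p 0.0775) and without co-culture 1, 2 or 3 (1.49, 1.40 and 1.44, edgeR adjusted p 0.0787, 0.109 and 0.0569). With the strand class as covariate it was 1.33 (edgeR adjusted p 0.241). The replicate block gave 1.47 (edgeR adjusted p 0.0522).

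EGR4, a member expressed mainly in neurons, had 1 read in co-culture 3 and 0 reads in the other 5 libraries. A count of 0 allows up to 3 reads, or 0.115 to 0.156 CPM in the controls, and this bound covers counting error only. No fold is given.

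The promoters of EGR1 and EGR2 are shown because both hold the elements through which such genes are classically switched on. Each window is the 250 bases before a RefSeq transcription start on GRCh38.p14, a build used here only for these windows. Capitals mark CArG boxes, the CRE core TGACG on either strand, and the EGR site GCGNGGGCG on either strand. The EGR1 window is chr5:138465229-138465478 on the plus strand, and the EGR2 window is chr10:62816367-62816616 on the minus strand.
EGR1: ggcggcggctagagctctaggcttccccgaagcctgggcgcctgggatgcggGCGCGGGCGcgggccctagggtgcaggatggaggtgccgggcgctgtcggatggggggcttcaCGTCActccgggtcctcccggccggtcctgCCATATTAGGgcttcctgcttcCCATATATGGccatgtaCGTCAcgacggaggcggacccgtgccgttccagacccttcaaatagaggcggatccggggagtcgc
EGR2: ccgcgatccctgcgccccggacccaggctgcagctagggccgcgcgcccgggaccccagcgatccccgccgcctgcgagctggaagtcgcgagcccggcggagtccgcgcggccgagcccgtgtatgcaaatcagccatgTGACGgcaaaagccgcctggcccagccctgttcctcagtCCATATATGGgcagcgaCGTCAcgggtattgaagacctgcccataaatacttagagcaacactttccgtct
EGR1 holds 2 CArG boxes, starting 105 and 83 bases before the start, 2 CRE cores and 1 EGR site. EGR2 holds 1 CArG box, 71 bases before the start, and 2 CRE cores. The other 2 EGR2 windows hold none of the 3 motifs, and the EGR4 window holds 2 CRE cores. Of the 35116 promoter windows of the same length, 1.16% hold a CArG box, 21.2% a CRE core and 8.41% an EGR site. A match describes letters and does not show a working site.

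NR4A1 (also called NUR77) rose from 10.9, 8.35 and 6.94 CPM in controls 1, 2 and 3 to 17.6, 16.5 and 16.5 CPM in co-culture libraries 1, 2 and 3. The co-culture values lie closer together than the controls, with no overlap. Group means were 16.9 ± 0.636 CPM with co-culture and 8.72 ± 1.99 CPM without (SD, n = 3 each). Its log2 fold change was 0.96 (edgeR adjusted p 0.00669, SE 0.14). It kept its call in 10 of 14 alternative fits, with log2 fold changes from 0.81 to 1.15 over all of them. The call was lost without control 2 (0.93, edgeR adjusted p 0.0625) and without co-culture 1 or 2 (0.93 and 0.98, edgeR adjusted p 0.0554 and 0.0583). It was also lost with the strand class as covariate (1.02, edgeR adjusted p 0.131).

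NR4A2 (NURR1), best known in dopamine neurons, stood at 9.91, 8.35 and 8.13 CPM in controls 1, 2 and 3. In co-culture libraries 1, 2 and 3 it stood at 10.4, 9.74 and 9.47 CPM. The groups overlap through control 1. On the log2 scale the change was 0.16 (SE 0.12, edgeR adjusted p 0.451), with a 95% interval from -0.10 to 0.43. It was 0.25 without control 1 (edgeR adjusted p 0.122) and 0.24 with the strand class as covariate. NR4A3 (NOR1) stood at 2.93, 3.03 and 3.11 CPM in the controls and at 3.10, 3.85 and 3.88 CPM in co-culture. Its groups overlap because co-culture 1, at 62 reads, matches the controls. Its fold change on the log2 scale was 0.26 (SE 0.18, edgeR adjusted p 0.404), with a 95% interval from -0.13 to 0.65, and 0.04 with the strand class as covariate.

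The NR4A3 promoter is shown because it has the most CRE cores of any window found, and windows were found for 7 of the 10 genes. EGR3, NR4A2 and ARC had no window. The NR4A3 window is chr9:99821635-99821884 on the plus strand of GRCh38.p14, with capitals as above.
NR4A3: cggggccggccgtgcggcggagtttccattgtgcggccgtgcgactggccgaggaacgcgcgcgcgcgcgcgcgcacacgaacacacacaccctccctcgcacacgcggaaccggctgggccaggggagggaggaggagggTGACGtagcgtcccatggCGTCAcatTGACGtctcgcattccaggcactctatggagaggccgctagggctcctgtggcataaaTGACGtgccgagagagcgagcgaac
It holds 4 CRE cores, starting 109, 91, 83 and 25 bases before the start, and no CArG box. The 2 windows listed for NR4A1 hold none of the 3 motifs. NR4A1 has 13 annotated coding transcripts, and the bases before any other start were not searched. Whether NR4A1 has a CRE core outside these 2 windows was therefore not tested. None of the windows found for the 7 genes holds AAAGGTCA, the site that NR4A monomers bind. That site occurs in 1.05% of all windows.

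NAB1 and NAB2 encode corepressors of the EGR factors, and NAB2 is itself a known EGR target. NAB1 was even across the libraries, at 105, 109 and 108 CPM in controls 1, 2 and 3 and 114, 104 and 103 CPM in co-culture libraries 1, 2 and 3. Its log2 fold change was -0.01 (SE 0.06, edgeR adjusted p 0.943), and its 95% interval from -0.14 to 0.12 is the narrowest of the 9 genes. It was -0.04 with total counts as the scaling and 0.08 with the strand class as covariate. NAB2 stood at 13.5, 9.81 and 8.02 CPM in controls 1, 2 and 3 and at 17.5, 18.9 and 15.8 CPM in co-culture libraries 1, 2 and 3. All co-culture values lay above the highest control. This is a log2 fold change of 0.74 (edgeR adjusted p 0.0345, SE 0.17). NAB2 lost its call without control 2 (0.70, edgeR adjusted p 0.153) and without co-culture 1, 2 or 3 (0.74, 0.68 and 0.82, edgeR adjusted p 0.143, 0.181 and 0.0648). It also lost it with total counts (0.71, edgeR adjusted p 0.0513) and with the strand class as covariate (0.75, edgeR adjusted p 0.287).

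The NAB2 promoter is shown because it carries an EGR site, chr12:57088864-57089113 on the plus strand of GRCh38.p14, with capitals as above.
NAB2: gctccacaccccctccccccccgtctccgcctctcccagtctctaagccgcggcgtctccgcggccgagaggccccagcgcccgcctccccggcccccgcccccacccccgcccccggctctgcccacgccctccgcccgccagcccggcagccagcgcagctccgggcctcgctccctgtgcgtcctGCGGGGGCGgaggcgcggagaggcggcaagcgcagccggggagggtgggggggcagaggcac
The site starts 62 bases before the start. NAB1, whose level did not differ beyond its spread, also has EGR sites in 2 of its 3 windows, 2 overlapping ones in the first and 3 in the next, and these windows share sequence.

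ARC was rare, at 1.92, 1.98 and 1.19 CPM in controls 1, 2 and 3 and 2.30, 1.62 and 1.96 CPM in co-culture libraries 1, 2 and 3. The groups overlap, with 31 to 38 reads in controls and 34 to 70 in co-culture. Its log2 fold change was 0.22 (SE 0.26, edgeR adjusted p 0.644), with a 95% interval from -0.35 to 0.80. It ran from 0.00 without control 3 to 0.35 without control 2 and was 0.46 with the strand class as covariate.

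**Figure D2:**
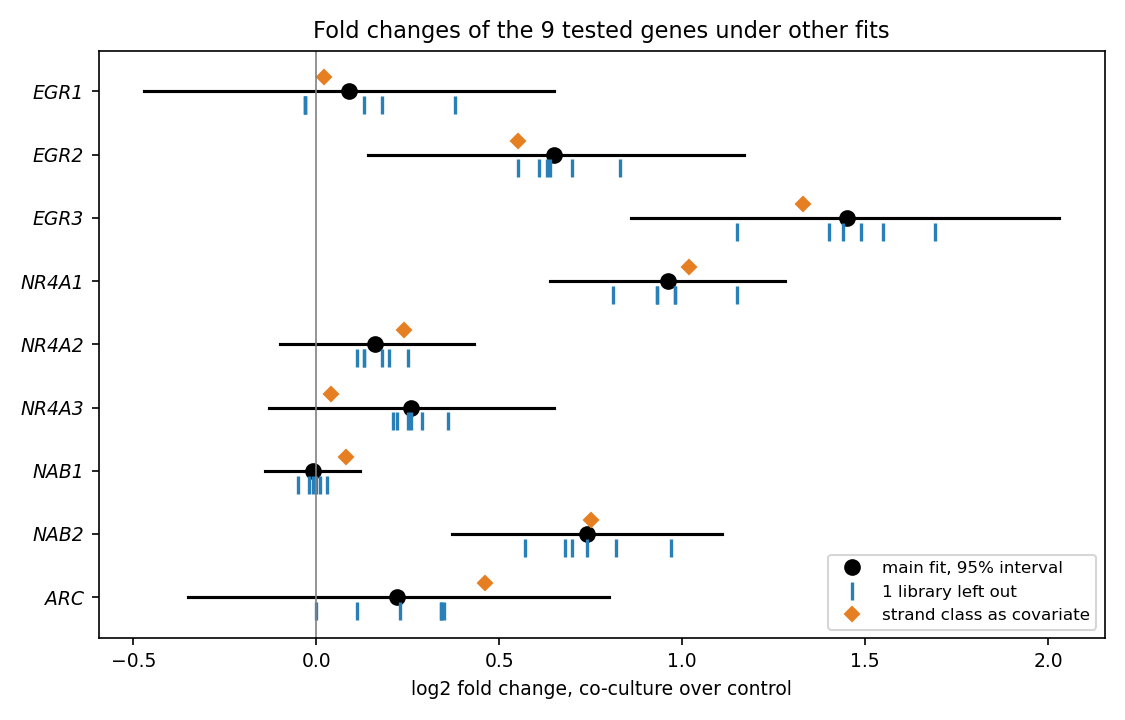
Log2 fold change of co-culture over control (horizontal axis) for the 9 tested genes. Black points with bars are edgeR estimates with 95% intervals, blue ticks are fits with 1 library left out, and orange diamonds are the fit including strand class. EGR3, NR4A1, NAB2 and EGR2 stay above 0 throughout, EGR1 moves between -0.03 and 0.38, and NAB1 stays near 0.

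Levels of different genes can be set side by side only per length. CPM was therefore divided by the length in kilobases of each gene's longest coding transcript in GENCODE release 29, which need not be the model the authors counted. In controls EGR1 was highest at 45.8 ± 14.3 CPM per kb, followed by NAB1 at 24.6 ± 0.468, NAB2 at 3.85 ± 1.03, NR4A2 at 2.53 ± 0.279 and NR4A1 at 2.48 ± 0.566 (SD, n = 3). ARC at 0.576 ± 0.150, NR4A3 at 0.530 ± 0.0154, EGR2 at 0.453 ± 0.0954 and EGR3 at 0.299 ± 0.109 CPM per kb came last before EGR4. Among neighbours in this order, NR4A2 and NR4A1 have overlapping ranges of mean ± SD. So do ARC and NR4A3, NR4A3 and EGR2, and EGR2 and EGR3. In co-culture the order began again with EGR1 at 48.7 ± 7.13, NAB1 at 24.5 ± 1.40 and NAB2 at 6.42 ± 0.573 CPM per kb. NR4A1, at 4.81 ± 0.181, then stood apart from NR4A2 at 2.84 ± 0.131. EGR3 stood at 0.800 ± 0.0583, EGR2 at 0.706 ± 0.0426, ARC at 0.664 ± 0.116 and NR4A3 at 0.633 ± 0.0773 CPM per kb. By the same measure EGR3 overlapped EGR2, EGR2 overlapped ARC and ARC overlapped NR4A3.

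Ratios of reads within a library do not depend on scaling, and they show how far relatives moved apart. The log2 ratio of NR4A2 to NR4A1 was -0.13, 0.00 and 0.23 in controls 1, 2 and 3 and -0.76, -0.76 and -0.80 in co-culture libraries 1, 2 and 3. NR4A1 and NR4A2 were thus read about equally in controls, whereas NR4A1 exceeded NR4A2 in every co-culture library. The mean ratio of NR4A2 to NR4A1 differed by -0.81, that of NR4A3 to NR4A1 by -0.73, that of NAB2 to NAB1 by 0.78 and that of EGR2 to EGR1 by 0.53 on the log2 scale, co-culture minus control. None of these 4 ratios overlapped between groups. The share among other gene pairs was not computed, and 29.3% of all tested genes had no overlap in CPM in either direction. The NR4A2 and NR4A3 ratios share NR4A1, so the 4 are not independent. The exact two-sided permutation p was 0.1 for each, and 0.1 after Benjamini-Hochberg adjustment over the 4. This is the smallest value that 3 against 3 libraries can give. Any ratio without overlap gives it, so the test adds nothing to the lack of overlap. The log2 ratio of EGR3 to EGR1 was -6.12, -7.04 and -7.23 in controls 1, 2 and 3 and -5.50, -5.18 and -5.67 in co-culture libraries 1, 2 and 3. It is given without a test because both fold changes were known when the pair was chosen.

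**Figure D3:**
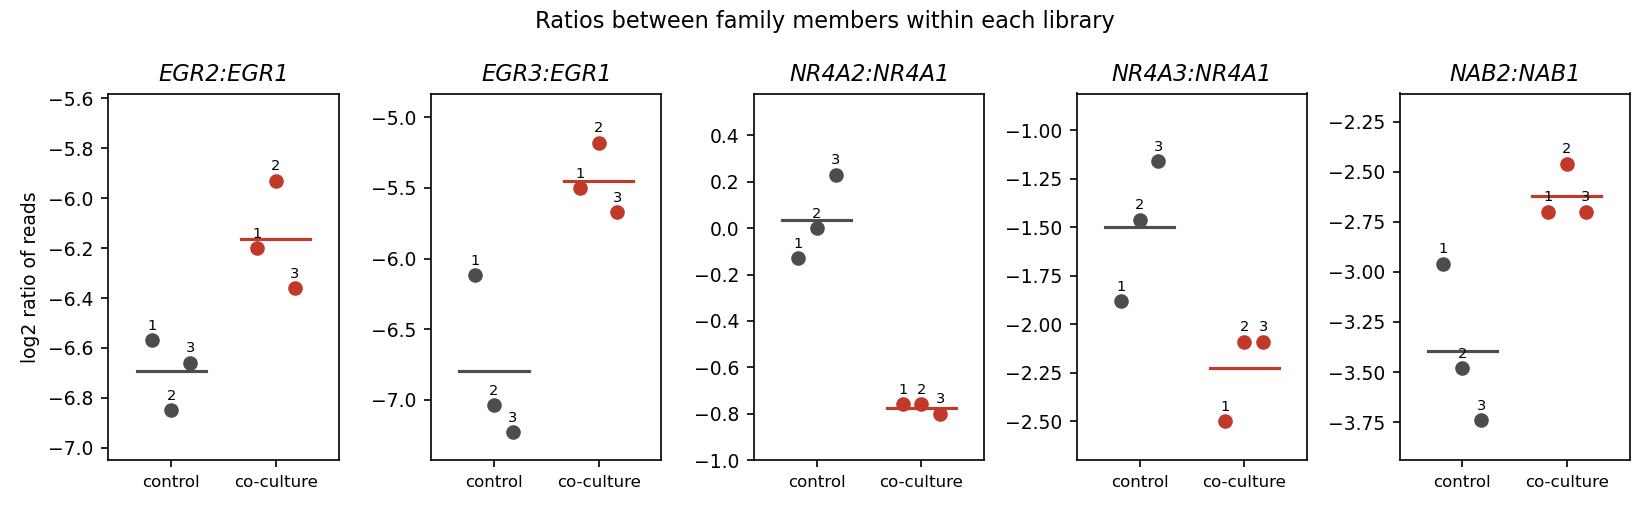
Log2 ratio of reads between family members (vertical axis, a separate range in each panel) in 3 control libraries (grey) and 3 co-culture libraries (red), with replicate numbers and group means as lines. The ratio of NR4A2 to NR4A1 lies between -0.13 and 0.23 in controls and between -0.80 and -0.76 in co-culture.

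A list of 28 regulators of EGR and NR4A transcription held SRF, its ETS and MRTF partners, and CREB1 and its coactivators. MEF2 factors, ERK pathway kinases and the deacetylases HDAC5 and HDAC7 were also in it, so not every member is an activator. In edgeR 0 of the 28 passed in either direction. At an unadjusted p under 0.05 there were 7, a level reached by 23.2% of all genes. The median log2 fold change of the list was -0.02, against 0.00 over all tested genes. EP300, an acetyltransferase coactivator, stood at -0.19 on the log2 scale (edgeR adjusted p 0.191, SE 0.08) and at -0.29 without control 1 (edgeR adjusted p 0.000558). Without control 1, 2 of the 28 were higher and 3 lower, where 10.7% of all genes were called higher and 10.3% lower. DESeq2 called 1 lower (2.29% of all genes called lower), as did total counts (3.92%). Limma-voom called 0, and unstranded counts called 1 higher (2.52% of all genes called higher). Phosphorylation, the usual switch of these proteins, is not measured by RNA-seq.

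Among 31 other immediate-early genes, 10 rose and 0 fell, where 2.66% of all tested genes were called higher and 2.17% lower. The other 21 did not pass, and the median log2 fold change was 0.51 (0.34 without control 1). Log2 fold changes were above 0 for 21 of the 31. All 8 lists were chosen with earlier results of these data known, so list counts beside all-gene shares are descriptions and not tests. FOS, JUN and MYC, not called, stood at -0.23, -0.21 and -0.33 (SE 0.21, 0.09 and 0.10). FOSB, an AP-1 subunit, changed by 1.32 (SE 0.23, edgeR adjusted p 0.0154) and FOSL1, another, by 1.26 (SE 0.19, edgeR adjusted p 0.00591). RHOB, a small GTPase, rose from 90.8 ± 18.9 to 193 ± 10.9 CPM (SD, n = 3 each), or by 1.09 on the log2 scale (SE 0.13, edgeR adjusted p 0.00447). The count depended on single libraries, as did the count over all genes. Without control 1, 17 rose and 2 fell (10.7% and 10.3% of all genes). Without control 2, 4 rose (0.329% of all genes called higher). Without co-culture 1 and 2, 6 and 5 rose (0.59% and 0.391%). With the strand class as covariate 2 rose (0.171%). FOSB lost its call with that covariate (1.49, edgeR adjusted p 0.136) and without any 1 of controls 1, 2 and 3 and co-culture 1 and 2, at log2 fold changes no lower than 1.15. FOSL1 lost it without control 2, without co-culture 2 and with the covariate. RHOB lost its call in 1 of 14 alternative fits, the one with the strand covariate (1.18, edgeR adjusted p 0.0541).

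Of 16 genes that report ERK output, 3 rose and 1 fell, where 2.66% of all tested genes were called higher and 2.17% lower. The other 12 did not pass, and the median log2 fold change was 0.23 (0.12 without control 1). Log2 fold changes were above 0 for 10 of the 16. DUSP6, SPRY1 and SPRY2, not called, stood at -0.02, -0.20 and -0.19 (SE 0.12, 0.08 and 0.10). ETV4, an ETS factor induced by ERK signalling, had a log2 fold change of 1.45 (SE 0.13) and kept its call in all 14 alternative fits. IL11, a cytokine, changed by 1.08 (SE 0.26, edgeR adjusted p 0.0394) and SPRY4, a feedback inhibitor of the pathway, by 0.68 (SE 0.10, edgeR adjusted p 0.0047). EPHA4, an ephrin receptor, fell by 0.28 on the log2 scale (edgeR adjusted p 0.0423). Without control 1, 7 rose and 3 fell (10.7% and 10.3% of all genes). With no filter on low counts 5 rose, and in DESeq2 6 (2.47% and 3.04% of all genes called higher). IL11 lost its call without any 1 of the 5 libraries other than control 1, with the replicate block and with the strand class as covariate. With that covariate ETV4 alone of the 16 passed (0.199% of all genes), and SPRY4 stood at 0.73 (edgeR adjusted p 0.11). EPHA4 lost its call in the same 7 fits as IL11.

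CREB and activity-regulated genes other than NR4A and ARC had a median of 0.12. Among 17 tested of 20 listed, 1 was higher, against 2.66% of all genes. The gene was PCSK1, a prohormone convertase, which rose from 1.78 ± 0.503 to 7.41 ± 0.726 CPM (SD, n = 3 each). Its log2 fold change was 2.04 (SE 0.21, edgeR adjusted p 0.000908), and it kept its call in all 14 alternative fits, between 1.84 and 2.18. Without control 1, 5 of the 17 rose and 2 fell, against 10.7% and 10.3% of all genes. The median ran from 0.07 without control 3 to 0.19 without co-culture 3.

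Known EGR target genes other than NAB2 showed 6 higher and 1 lower among 22 tested of 24 listed (2.66% and 2.17% of all genes). The other 15 were not past the threshold, and the median log2 fold change was 0.22. PTGS2, the inducible cyclooxygenase, rose from 8.89 ± 1.38 to 18.6 ± 1.41 CPM (1.07 on the log2 scale, SE 0.12, edgeR adjusted p 0.00143). FN1, the matrix protein fibronectin, rose from 843 ± 87.4 to 1520 ± 56.3 CPM (0.85 on the log2 scale, SE 0.08, edgeR adjusted p 0.000678). ICAM1, an adhesion molecule also induced by NF-kB, moved the other way, from 8.37 ± 1.78 to 4.10 ± 0.655 CPM (-1.01 on the log2 scale, SE 0.19, edgeR adjusted p 0.0159). PTGS2 and FN1 kept their calls in all 14 alternative fits. ICAM1 lost its call without control 2, without co-culture 1 or 2 and with the strand class as covariate (-0.96, edgeR adjusted p 0.279). The count of higher genes was 10 without control 1 (10.7% of all genes called higher) and 2 without control 2 (0.329%). Without co-culture 1, 2 and 3 it was 3, 2 and 2 (0.59%, 0.391% and 1.78%). It was 4 with total counts (2.13%). With the replicate block and with the strand class as covariate it was 2 (0.754% and 0.171%). Many of these genes answer to other factors too.

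The NuRD chromatin complex, through which NAB proteins repress, had 0 higher and 1 lower gene among 13 (2.66% and 2.17% of all genes). The median of its genes was -0.06. MBD3, its methyl-CpG-binding-domain subunit, was the lower gene, at 114 ± 4.90 against 152 ± 9.57 CPM (SD, n = 3 each). Its log2 fold change was -0.42 (SE 0.06, edgeR adjusted p 0.00719), and the call was lost without co-culture 1 or 2 and with that covariate. Without control 1, 1 of the 13 rose and 4 fell, against 10.7% and 10.3% of all genes. Of 14 NR4A partners and targets, 9 could be tested and 0 passed in edgeR, in DESeq2 or in limma-voom (1 at an unadjusted p under 0.05 in edgeR, against 23.2% of all genes), with NR3C1, the glucocorticoid receptor, at a log2 fold change of 0.10 (SE 0.08) and RXRB, a retinoid X receptor, at -0.05 (SE 0.07). Of 9 zinc finger factors that bind GC-rich sites like those of EGR proteins, 0 rose and 1 fell (2.66% and 2.17% of all genes). The lower one was ZBTB7A, with a log2 fold change of -0.35 (edgeR adjusted p 0.0217, SE 0.07). It lost that call without control 2, without co-culture 1, 2 or 3, with the replicate block and with the strand class as covariate. Without control 1, 2 of the 9 rose and 2 fell, against 10.7% and 10.3% of all genes. In DESeq2 and with no filter on low counts 1 of the 9 rose (3.04% and 2.47% of all genes called higher).

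**Figure D4:**
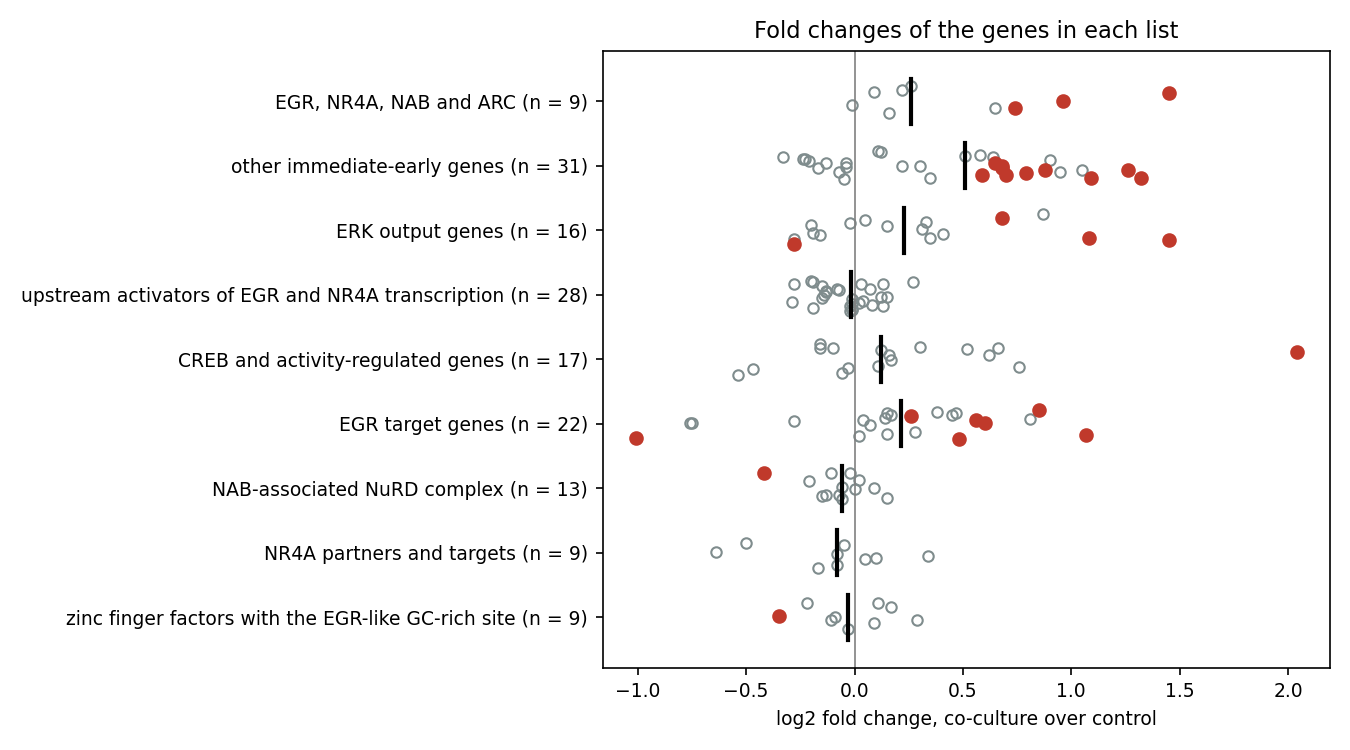
Log2 fold change of co-culture over control (horizontal axis) for each tested gene of the 8 lists and for the 9 tested EGR, NR4A, NAB and ARC genes. Filled red points had an edgeR adjusted p under 0.05, open grey points did not, and black bars are medians. Other immediate-early genes have a median of 0.51. The list labelled upstream activators, which also holds HDAC5 and HDAC7, has a median of -0.02.

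The genes with the most similar profile were found by the root mean square difference of log2 CPM over the 6 libraries, after centring each gene on its mean, among 13694 genes with at least 1 CPM. Nearest to NR4A1 were RHOB and IER3 (both 0.07), which is an immediate-early gene itself, and INSIG1 (0.09), a brake on cholesterol synthesis. Nearest to EGR3 were FOSL1 (0.19), the long noncoding RNA MIR210HG and IL11 (both 0.22). KLF7, a Krüppel-like factor, INSIG1 and ZNF497, a zinc finger gene, were nearest to NAB2, at 0.08, 0.08 and 0.09. Since nearness was measured over these same 6 libraries, the choice favours genes with the member's own order among the controls. All of these profiles had the same order there, with control 1 highest and control 3 lowest, and so did EGR3, NR4A1 and NAB2. NR4A1 and RHOB, for example, stood at 10.9 and 111 CPM in control 1 and at 6.94 and 74.1 CPM in control 3. EGR1 did not have this order, since control 2 was its highest. These likenesses are descriptions of 6 libraries and carry no test.

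**Figure D5:**
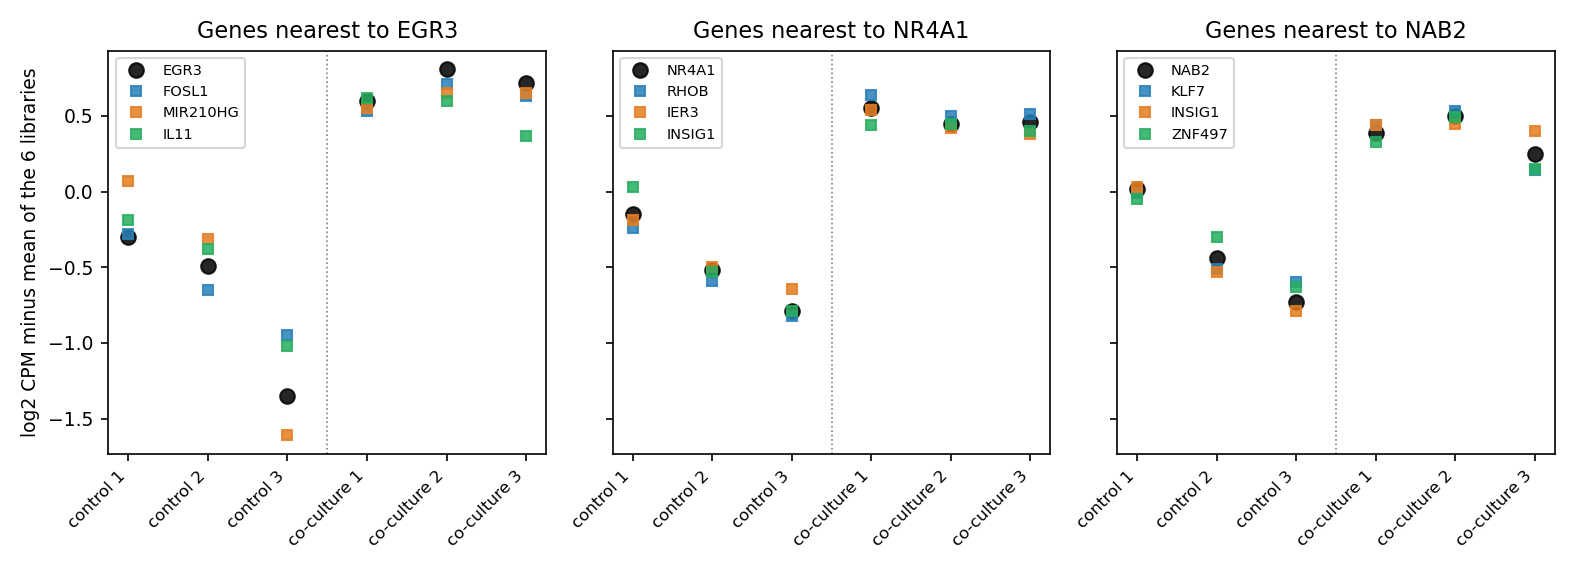
Log2 CPM minus each gene's mean of the 6 libraries (vertical axis) in controls 1 to 3 and co-culture 1 to 3 (horizontal axis), for EGR3, NR4A1 and NAB2 (black circles) and the 3 nearest genes to each (coloured squares). Control 1 is the highest and control 3 the lowest control in each profile, a likeness that the choice of nearest genes favours.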

How the data were processed

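RNA-seq libraries of 6 HEK293 samples were deposited as raw read counts per gene, 1 file each. The authors made them with STAR 2.53a, naming hg18, per the submitters' processing notes; annotation and trimming are not given in the sources used here. Per the labels' protocols the kit was stranded, so reverse-strand counts were used. Summary lines naming no gene were left out. Multimapping reads were 6.48% to 8.42% of each library, unmapped reads 1.22% to 1.67% and ambiguous ones 0.835% to 1.01%. Reads assigned to no gene on the reverse strand were 14.8% to 17.7%, which can include reads on the opposite strand of genes.

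Groups and replicate numbers were read from titles. Libraries of the same group differed far beyond sampling noise (chi-square per degree of freedom 4.72 to 18.7). Genes were filtered with filterByExpr (minimum count 10), scaled by trimmed means of M-values and tested with edgeR 4.0.16 under R 4.3.3, the group being the single term. SE is the absolute log2 fold change over the square root of F. Alternatives used DESeq2 1.42.0, limma 3.58.1 (voom) and other edgeR fits. Ratios added 0.5 reads. The scripts were tested on simulated data. Named genes were the 10 members, from each of 8 lists up to 3 called genes with the largest change (or, if none, the 2 most abundant), and the 3 genes nearest to each called member. Of the genes this rule picks, 1 is not reported here. EPHA4 was named as the only lower gene of its list, after its value was seen. FOS, JUN, MYC, DUSP6, SPRY1 and SPRY2 were also named after their values were seen. Members and lists were chosen with earlier results of these data known. Of 155 list entries, 4 were matched by an older symbol. Promoter sequences are RefSeq's on GRCh38.p14 and matched 7 of the 10 genes.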

Additional observations from a re-analysis of the deposited data

How the results depend on the processing

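The number of genes called by edgeR was 704, with 55.1% of them higher. With total counts in place of trimmed means the share of higher calls was 35.1% of 882, and the median gene moved from 0.00 to -0.04 on the log2 scale. The count was 164 with the replicate block and 29 with the strand class as covariate, and it ran from 65 to 3067 when 1 library was left out. Of the 9 tested members, 3 were called, 0 with the strand class as covariate, 2 with the replicate block and 0 to 3 with 1 library left out. Same-numbered libraries did not deviate together (correlations of -0.04, -0.09 and -0.09), so the numbers were not taken as pairs. EGR1 and NAB1, neither of them called, changed sign when 1 library was left out: they ran from -0.03 to 0.38 and from -0.05 to 0.03. NAB1 was 0.08 with the strand class as covariate. The median of the NR4A partner list, -0.08, was 0.16 without control 1. The cause was not tested. EGR2, EGR3 and ARC rest on at most 125 reads in a library and EGR4 on 1 read in all; in controls the coefficient of variation from counting alone was 19.2% for EGR3 and 16.7% for ARC, beside 36.3% and 25.9% observed. Ratios with EGR4 could not be run, since it did not pass the filter; the other 5 kept their direction in each alternative tried.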
